A study of Mus musculus with 20 samples.

Results

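The muscle myosin heavy chains are the 8 genes Myh1, Myh2, Myh3, Myh4, Myh6, Myh7, Myh7b and Myh8, taken by gene symbol from a table of 26722 genes. All 8 were present in the table and all 8 passed the filter on low counts, with 109 to 48120 counts per library. They were measured in 20 libraries of total RNA from C2C12 cells, an established mouse myoblast line that fuses into myotubes when serum is reduced. Myotubes had been differentiated for 5 days in low horse serum and were then treated for 16 hours, with 4 biological replicates in each of 5 treatments. Every treatment contained an antibody at 7.7 nM. The b12 group received only the negative control antibody b12, and the 13-3B5 group received only the bivalent antibody 13-3B5, which activates MuSK, the receptor tyrosine kinase of the neuromuscular synapse. The other 3 groups also received neural agrin at 0.1 nM, the natural activator of MuSK, together with b12, with the monovalent MuSK inhibitor 13-3B5xb12 or with the monovalent MuSK inhibitor 11-3F6xb12. All libraries came from 1 cell line; the replicates therefore do not represent separate animals.

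A muscle myosin heavy chain is the motor of the thick filament. Its head binds actin and hydrolyses ATP, and its coiled-coil tail packs into the filament. Each gene encodes an isoform with its own contraction speed, and muscles switch between them in development: embryonic Myh3 and neonatal Myh8 are used early, and adult fibres use fast Myh2 (IIa), Myh1 (IIx) and Myh4 (IIb) or slow Myh7. Myh6 is the fast cardiac isoform, and Myh7b is an ancient relative of Myh7 whose transcript is known to carry a microRNA. Agrin acts through MuSK to assemble the postsynaptic membrane.

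In GRCm38, annotated by GENCODE release M21, 5 members lie in 1 cluster on the plus strand of chromosome 11. Their order is Myh3 (ENSMUSG00000020908, 67078300 to 67102291), Myh2 (ENSMUSG00000033196, 67171027 to 67197517), Myh1 (ENSMUSG00000056328, 67200052 to 67224575), Myh4 (ENSMUSG00000057003, 67238029 to 67260446) and Myh8 (ENSMUSG00000055775, 67277124 to 67308634). Myh6 (ENSMUSG00000040752, 54941921 to 54966927) and Myh7 (ENSMUSG00000053093, 54970684 to 54994626) are neighbours on the minus strand of chromosome 14. Myh7b (ENSMUSG00000074652, 155611212 to 155634307) stands alone on the plus strand of chromosome 2.

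Myh6, Myh7 and Myh7b each hold a microRNA of the "myomiR" family in an intron: miR-208a in intron 29 of Myh6, miR-208b in intron 31 of Myh7 and miR-499 in intron 19 of Myh7b, counted in the longest annotated transcript. They are shown because the 3 seeds are almost the same. The mature sequences are from RefSeq (GRCm38.p6), with the seed, bases 2 to 8, in capitals.
mmu-miR-208a-3p, chr14:54949072-54949093, - strand: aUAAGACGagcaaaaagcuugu
mmu-miR-208b-3p, chr14:54975710-54975731, - strand: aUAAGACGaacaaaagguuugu
mmu-miR-499-5p, chr2:155622893-155622913, + strand: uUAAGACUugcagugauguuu
The miR-208a and miR-208b seeds were identical (UAAGACG), and the seed of miR-499 differed from them in its last base (UAAGACU). The mature microRNAs were not analysed here. The row for the Mir499 precursor held at most 2 counts in any library, under the floor of 3 counts used here for detection.

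Promoter windows of 4 members are shown because the results turn on them: Myh3 and Myh1 carried most of the myosin transcript, Myh7b differed by replicate number, and Myh4 by replicate number in a way that was not the same in the 2 inhibitor groups. Each window is the 250 bases before the RefSeq start, in GRCm38.p6. Capitals mark matches, on either strand, to TATAAA, to the MEF2 or the CArG consensus or to TCAAGGTCA, the extended site of the oestrogen-related receptors.
Myh3, chr11:67078050-67078299, + strand: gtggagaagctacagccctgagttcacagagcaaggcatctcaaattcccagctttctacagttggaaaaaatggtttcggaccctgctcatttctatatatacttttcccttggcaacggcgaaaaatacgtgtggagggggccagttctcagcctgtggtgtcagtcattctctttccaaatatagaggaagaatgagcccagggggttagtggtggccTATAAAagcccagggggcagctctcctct
Myh1, chr11:67199852-67200101, + strand: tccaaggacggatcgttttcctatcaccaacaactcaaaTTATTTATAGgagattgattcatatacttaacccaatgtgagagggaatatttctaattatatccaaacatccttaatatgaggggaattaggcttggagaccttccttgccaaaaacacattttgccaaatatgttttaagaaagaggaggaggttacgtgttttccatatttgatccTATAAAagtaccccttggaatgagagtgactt
Myh4, chr11:67237562-67237811, + strand: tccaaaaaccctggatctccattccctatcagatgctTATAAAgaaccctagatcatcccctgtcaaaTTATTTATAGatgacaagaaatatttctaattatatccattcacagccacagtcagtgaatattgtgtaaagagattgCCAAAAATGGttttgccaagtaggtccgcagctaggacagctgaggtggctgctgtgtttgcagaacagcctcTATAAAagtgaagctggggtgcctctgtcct
Myh7b, chr2:155610993-155611242, + strand: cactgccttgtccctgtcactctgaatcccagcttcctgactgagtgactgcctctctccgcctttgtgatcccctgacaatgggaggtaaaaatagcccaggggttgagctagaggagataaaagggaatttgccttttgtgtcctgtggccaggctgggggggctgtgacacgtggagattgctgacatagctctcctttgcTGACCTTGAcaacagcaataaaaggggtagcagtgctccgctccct
The Myh7b window held TGACCTTGA, the reverse complement of TCAAGGTCA, at 46 to 38 bases before the start. That motif was in 127 of 32851 RefSeq promoter windows of this length (0.387%) and in no other member's window. TATAAA lay at 29 to 24 bases before the start in Myh3, at 32 to 27 in Myh1 and at 31 to 26 in Myh4, and it was in 12.4% of all windows. The MEF2 consensus was found as TTATTTATAG in Myh1 (211 to 202 bases before the start), Myh4 (182 to 173) and Myh8 (99 to 90), and in 2.92% of all windows. Each of those 3 MEF2 matches contains a TATAAA match on the opposite strand. The CArG consensus was found in Myh4 alone among the members (104 to 95 bases before the start), and in 1.47% of all windows. The E-box CANNTG and the MCAT motif CATTCC, also searched on both strands and not capitalised, were in 66.2% and 12.6% of all windows. Within the chromosome 11 cluster, the windows of Myh2, Myh1, Myh4 and Myh8 shared identical runs of 14 to 22 bases pair by pair, the longest between Myh1 and Myh8 (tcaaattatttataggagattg). The Myh3 window, of the same cluster, shared at most 11 bases with that of any other member, and the Myh7b window at most 10. A match describes the letters of the window only.

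The libraries held 18424881 to 23343903 counts each. Myotube genes were abundant in every library: Myog, the transcription factor of terminal differentiation, was at 495 to 669 CPM (a count rescaled so that every library has the same total), and the skeletal actin Acta1 at 2138 to 2548 CPM. The satellite cell factor Pax7 stayed between 0.91 and 4.04 CPM. The library of agrin with b12 replicate 3 stood apart in summed liver transcripts (23.2 CPM, against at most 1.04 CPM in the other 19). A trend of expression with gene length set apart b12 replicate 2 and agrin with 13-3B5xb12 replicate 1, whose Spearman correlation of a gene's deviation with its length was 0.37 and 0.34, against −0.23 to 0.20 in the other 18.

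Embryonic Myh3 dominated the myosin heavy chain transcripts of these myotubes. Not every cell fuses, and in bulk RNA fewer myotubes and less myosin transcript per myotube cannot be told apart. To compare genes, counts scaled to the library were divided by the length of merged exon, giving CPM per kilobase. On that scale Myh3 stood at 274 ± 41.4 (SD, n = 20), Myh1 at 62.9 ± 8.01, Myh4 at 25.3 ± 3.47 and Myh7, the slow isoform, at 12.1 ± 2.15. The ranges of these 4 genes did not overlap over the 20 libraries. Low levels followed for Myh8 at 2.21 ± 0.313, Myh2 at 1.68 ± 0.301, Myh7b at 1.68 ± 0.716 and Myh6 at 1.36 ± 0.287. Among these lower 4 each gene overlapped the next: Myh8 exceeded Myh2 in 19 of 20 libraries, Myh2 exceeded Myh7b in 11 and Myh7b exceeded Myh6 in 12. Dividing by the longest transcript instead kept this order, with the ranges of Myh4 and Myh7 then overlapping and those of Myh8 and Myh2 then separate.

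As a share of the summed level per kilobase, embryonic Myh3 made up 71.6% ± 2.68 (SD, n = 20), with a lowest value of 64.9% and a highest of 76.0%. The adult fast genes together made up 23.7% ± 2.19, of which Myh1 was 16.6%, Myh4 6.75% and Myh2 0.443%. The slow and cardiac genes made up 4.03% ± 0.904, of which Myh7 was 3.23%, Myh7b 0.440% and Myh6 0.365%. Neonatal Myh8 made up 0.587% ± 0.108, a share that was 1.09% when the longest transcript was used as the length and 1.11% with no division by length. Myh2, the adult fast gene of oxidative fibres, was the lowest of the 3 fast genes in every library. All 8 genes together took 0.195% to 0.318% of a library's counts.

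Reads can be shared between members. Of all 150-base windows of the longest transcript, 5.53% in Myh6 were also found in another member, all in Myh7, and 5.43% in Myh7, all in Myh6. The share was 2.50% in Myh1, 2.06% in Myh2, 0.533% in Myh8, 0.511% in Myh4 and 0% in Myh3 and Myh7b. The labels do not give the read length, and with 50-base windows the shares were larger: 26.7% in Myh2, 26.1% in Myh1, 22.6% in Myh6, 22.2% in Myh7, 19.9% in Myh8, 18.6% in Myh4, 3.66% in Myh3 and 0% in Myh7b. The low levels of Myh6 and Myh2, beside their abundant relatives Myh7 and Myh1, are the values most exposed to this, and how the authors' counting split such reads is not given in the sources used here. Antisense genes overlap Myh1 (Myhas, at most 29 counts), Myh2 (9430073C21Rik, at most 85) and Myh7 (Mhrt, Gm29015 and Gm31251, at most 14). Trpc4ap, on the opposite strand, averaged 1766 counts, more than Myh7b itself. It overlaps only the 3′ end of Myh7b, from base 155634271 to the last base of Myh7b at 155634307.

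**Figure D1:**
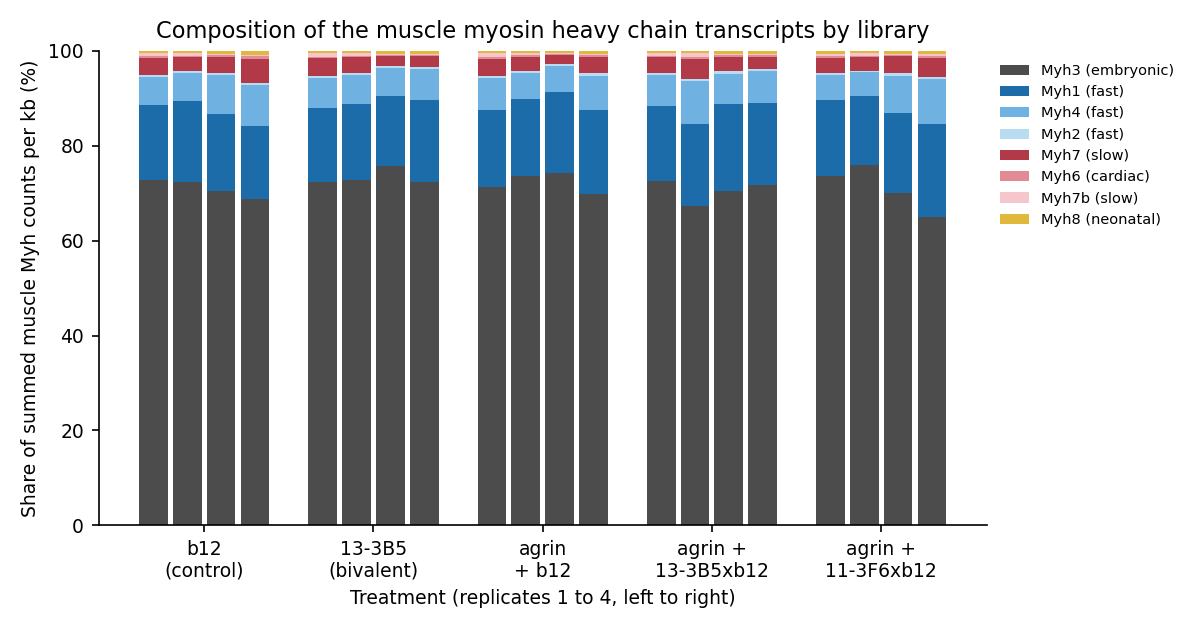
Share of each muscle myosin heavy chain in the summed counts per kilobase (y axis, %), 1 stacked bar for each of the 20 libraries, grouped by treatment (x axis) with replicates 1 to 4 from left to right. Myh3 fills 64.9% to 76.0% of every bar and Myh1 the next largest part.

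The 5 treatments had similar compositions. The embryonic share was 71.0% ± 1.87 (SD, n = 4) with b12, 73.3% ± 1.63 with bivalent 13-3B5, 72.2% ± 2.08 with agrin plus b12, 70.5% ± 2.29 with the 13-3B5xb12 inhibitor and 71.1% ± 4.79 with the 11-3F6xb12 inhibitor. The fast share was 23.8% ± 1.25, 22.5% ± 1.30, 23.5% ± 1.41, 24.8% ± 1.66 and 24.1% ± 4.29 in the same order. Embryonic Myh3 was the majority and the fast genes the next class in every treatment. The slow and cardiac share was 4.58% ± 1.03, 3.65% ± 1.11, 3.77% ± 1.04, 4.06% ± 0.971 and 4.11% ± 0.438. The neonatal share was 0.642% ± 0.180, 0.552% ± 0.0774, 0.510% ± 0.0655, 0.609% ± 0.0888 and 0.622% ± 0.0874. The difference between the highest and lowest treatment mean of each class was smaller than the largest SD among the 4 libraries of a treatment. For the embryonic, fast and neonatal classes it was larger than the SD of every other treatment. Shares were not tested.

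Gene by gene, no myosin heavy chain passed the test in any of 8 comparisons between treatments. These were each of the 4 other treatments against b12, the 3 others against agrin with b12, and the 2 monovalent inhibitors against each other. Comparisons with b12 share the b12 libraries and those with agrin share the agrin libraries. By edgeR's quasi-likelihood test, adjusted over 14605 genes, 0 of 8 members passed in each comparison, where 0% of all genes passed too. DESeq2 called 0 of 8 members in each as well. At an unadjusted p under 0.05, 1 of 64 tests passed, against 349 to 617 of the 14605 genes per comparison. No member had groups without overlap. Of all genes, 1.72% had such groups for agrin with b12, 1.88% for 13-3B5, 1.64% for 13-3B5xb12 and 2.16% for 11-3F6xb12, each against b12. The shares were 2.38% for 13-3B5, 2.31% for 13-3B5xb12 and 2.90% for 11-3F6xb12 against agrin with b12, and 2.72% between the inhibitors. With the replicate number as a block, 0 of 8 members passed by edgeR in each comparison, where 0.0205% of genes passed for 11-3F6xb12 against b12, 0.0137% against agrin with b12, 0.0342% against 13-3B5xb12 and 0% in the other 5. At an unadjusted p under 0.05, 4 of 64 tests passed with the block, against 440 to 904 of the 14605 genes per comparison. The log2 fold changes ran from −0.33 to 0.25, with a median SE of 0.16.

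The unadjusted pass without the block was neonatal Myh8 with agrin and b12 against b12. Myh8 stood at 20.2, 26.0, 23 and 22.5 CPM with agrin, and at 22, 29.3, 29.0 and 31.4 CPM with b12. The 2 groups overlapped, since the lowest b12 library lay within the agrin range. The log2 fold change was −0.29 (SE 0.13, unadjusted p = 0.0387, adjusted p = 1.00, edgeR), and without any one of these 8 libraries it ran from −0.38 to −0.23. Set against the b12 library of the same replicate number, Myh8 with agrin was lower in 4 of 4 pairs, as were 4.76% of all genes, and the blocked fit gave −0.28 on the log2 scale (SE 0.12, unadjusted p = 0.0222, adjusted p = 1.00, edgeR). The blocked fit of 11-3F6xb12 against agrin with b12 gave 0.25 for Myh8 (SE 0.12, unadjusted p = 0.0362, adjusted p = 0.983, edgeR).

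Slow Myh7 gave the lowest fold change. It stood at 126, 122, 98.0 and 135 CPM with b12, at 113, 115, 78.1 and 77.2 CPM with 13-3B5, and at 110, 101, 72.6 and 98.7 CPM with agrin and b12. With 13-3B5xb12 it stood at 126, 118, 90.0 and 73.5 CPM, and with 11-3F6xb12 at 102, 99.2, 109 and 118 CPM. Against the same b12 libraries the log2 fold changes were −0.33 (SE 0.18) for 13-3B5, −0.33 (SE 0.18) for agrin with b12, −0.24 (SE 0.18) with 13-3B5xb12 and −0.17 (SE 0.18) with 11-3F6xb12. None passed, with adjusted p from 0.999 to 1.00 by edgeR. By replicate number, Myh7 was below b12 in 4 of 4 pairs with agrin and b12 and in 4 of 4 pairs with 13-3B5, where 4.76% and 5.92% of all genes were. With the block the log2 fold changes were −0.34 for both (SE 0.15 each), with an unadjusted p of 0.0346 for agrin with b12 and 0.0345 for 13-3B5 and adjusted p of 1.00 and 0.987 (edgeR). Myh7 was also below b12 in 3 of 4 pairs with 13-3B5xb12 and in 3 of 4 pairs with 11-3F6xb12. There the blocked log2 fold changes were −0.25 and −0.15 (SE 0.15 each).

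Embryonic Myh3 stood at 1736, 2131, 1446 and 1297 CPM with b12 and at 1525, 1760, 1945 and 1760 CPM with 13-3B5. In the agrin groups it stood at 1512, 1864, 2029 and 1371 CPM with b12, at 1930, 1354, 1508 and 1463 CPM with 13-3B5xb12, and at 1687, 1908, 1531 and 1374 CPM with 11-3F6xb12. Each treatment spanned 1.28-fold to 1.64-fold between its lowest and highest library, more than any difference between treatment means. Myh1, the IIx gene, stood at 396, 528, 349 and 309 CPM with b12, at 346, 404, 396 and 437 CPM with 13-3B5 and at 361, 428, 489 and 366 CPM with agrin and b12. With 13-3B5xb12 it stood at 441, 364, 412 and 370 CPM, and with 11-3F6xb12 at 388, 385, 384 and 438 CPM. The b12 libraries alone therefore spanned the whole range of Myh1 in the study. Myh2 ran from 7.59 to 17.0 CPM and Myh6 from 5.89 to 14.0 CPM over the 20 libraries, and both were highest in a b12 library.

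Myh7b separated the libraries by replicate number instead of by treatment. It stood at 16.4 and 16.0 CPM in replicates 1 and 2 of b12 and at 5.57 and 6.42 CPM in replicates 3 and 4. With 13-3B5 the values were 17.4 and 13.2 CPM, then 8.03 and 7.28 CPM. In both groups without agrin the first pair was well above the second. With agrin and b12 they were 17.8 and 13.0 CPM, then 7.42 and 6.12 CPM. With 13-3B5xb12 they were 15.1 and 15.6 CPM, then 5.90 and 6.98 CPM, and with 11-3F6xb12 they were 15.5 and 16.2 CPM, then 5.92 and 6.98 CPM. Every library of replicates 1 and 2 was above every library of replicates 3 and 4, whatever the treatment. The labels do not say what the replicate numbers share.

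**Figure D2:**
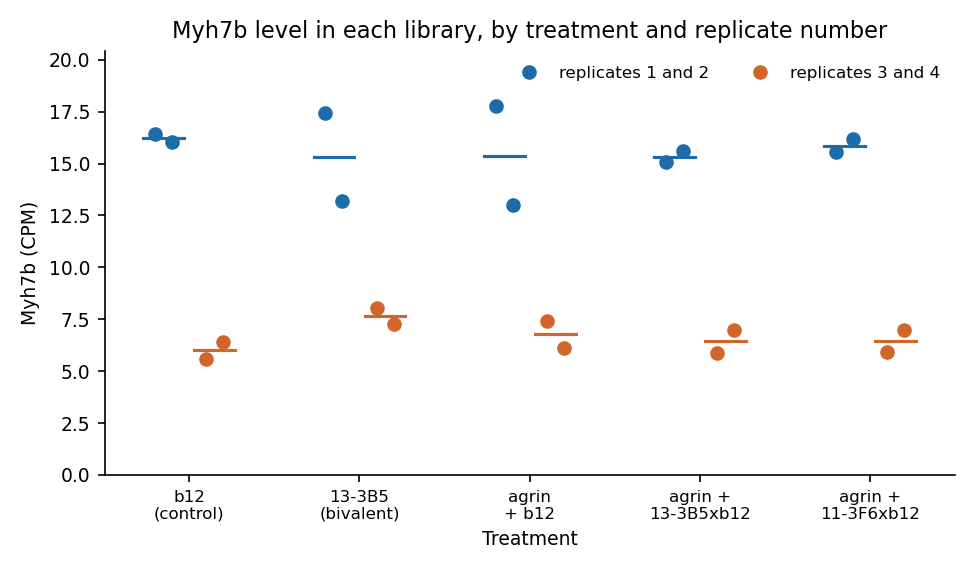
Myh7b level (y axis, CPM) in each of the 20 libraries by treatment (x axis), with replicates 1 and 2 in blue, replicates 3 and 4 in orange and a line at each pair's mean. The 10 blue points lie between 13.0 and 17.8 CPM and the 10 orange points between 5.57 and 8.03 CPM.

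Over the 5 treatments, Myh7b averaged 15.6 ± 1.56 CPM (SD, n = 10; 277 to 391 counts) in replicates 1-2 and 6.66 ± 0.798 CPM (n = 10; 109 to 183 counts) in replicates 3-4. The log2 fold change of replicates 3-4 over 1-2 was −1.23 (SE 0.09, adjusted p = 3.25e-12, edgeR with treatment as a covariate). This split was first noticed in these data, so the p-value is read only beside the share of all genes called, which was 13.1% (1908 of 14605 genes, 7.13% lower and 5.93% higher). Of the 8 members 1 passed. Myh7b was also the only member whose 2 sets of libraries did not overlap, which was so for 1.68% of all genes. It had rank 18 by p among all genes, and 78 called genes fell as far or further. Within treatments, with 2 libraries against 2, its log2 fold change was −1.44 (adjusted p = 0.00866) for b12, −0.997 (0.000171) for 13-3B5, −1.19 (0.00272) for agrin and b12, −1.26 (0.0196) for 13-3B5xb12 and −1.30 (1.28e-07) for 11-3F6xb12, all by edgeR. Of all genes, 0.965%, 6.61%, 2.42%, 0.562% and 6.80% passed in those 5 fits. No other member was called within all of them. Without any one library it ran from −1.27 to −1.20, and without the 2 libraries set apart by length it was −1.22.

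The genes around Myh7b were also tested. On chromosome 2, the gene before Myh7b, Gss, a glutathione synthetase, fell by 0.28 on the log2 scale (SE 0.05, adjusted p = 0.000297, edgeR). The genes overlapping or following Myh7b had log2 fold changes of −0.10 (Trpc4ap, adjusted p = 0.210) and 0.13 (Edem2, adjusted p = 0.236).

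The other 7 members did not pass between replicates 3-4 and 1-2. Myh7 was at −0.27 on the log2 scale (SE 0.09, adjusted p = 0.0696, edgeR), from a median of 114 CPM (lowest 99.2, highest 126) to one of 94.0 CPM (lowest 72.6, highest 135), and Myh8 was at 0.21 (SE 0.07, adjusted p = 0.0529), from a median of 24.7 CPM (19.3 to 29.3) to one of 29.2 CPM (22.5 to 31.4). Myh3 was at −0.15 (adjusted p = 0.394), Myh6 at −0.17 (0.451), Myh4 at 0.10 (0.570), Myh1 at −0.04 (0.876) and Myh2 at 0.04 (0.891). Myh8 passed, at 0.27 (adjusted p = 0.00521, edgeR), once the 2 libraries set apart by length were left out, where 17.6% of genes were called. Counts summed per replicate number over the treatments, 2 sums against 2, called 3 members, Myh7b (−1.23), Myh7 (−0.26) and Myh8 (0.20), where 14.6% of genes were called. DESeq2 called the same 3 members, where 15.0% of genes were called. Within single treatments other members were called too, by edgeR. In 13-3B5, where 6.61% of genes were called, they were Myh7 (−0.55), Myh8 (0.49) and Myh3 (0.18, adjusted p = 0.0479). In 11-3F6xb12, where 6.80% were called, they were Myh4 (0.62) and Myh3, which had the opposite sign (−0.31, adjusted p = 0.00296). In 13-3B5xb12, where 0.562% were called, it was Myh7 (−0.58, adjusted p = 0.0384). With all treatments, a correction for gene length called 2 (Myh7b and Myh8), where 14.8% of genes were called, and dropping the filter on low counts called 3 (Myh7b, Myh7 and Myh3), where 7.43% were.

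In shares, Myh7b was 0.604% ± 0.110 (SD, n = 10) in replicates 1-2 and 0.276% ± 0.0266 in replicates 3-4, and the 2 sets of libraries did not overlap. The slow and cardiac class as a whole was 4.33% ± 0.598 and 3.74% ± 1.09, the fast class 22.7% ± 1.75 and 24.8% ± 2.18, the embryonic 72.4% ± 2.18 and 70.8% ± 2.99 and the neonatal 0.516% ± 0.0339 and 0.658% ± 0.111. All 4 classes overlapped between the sets.

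**Figure D3:**
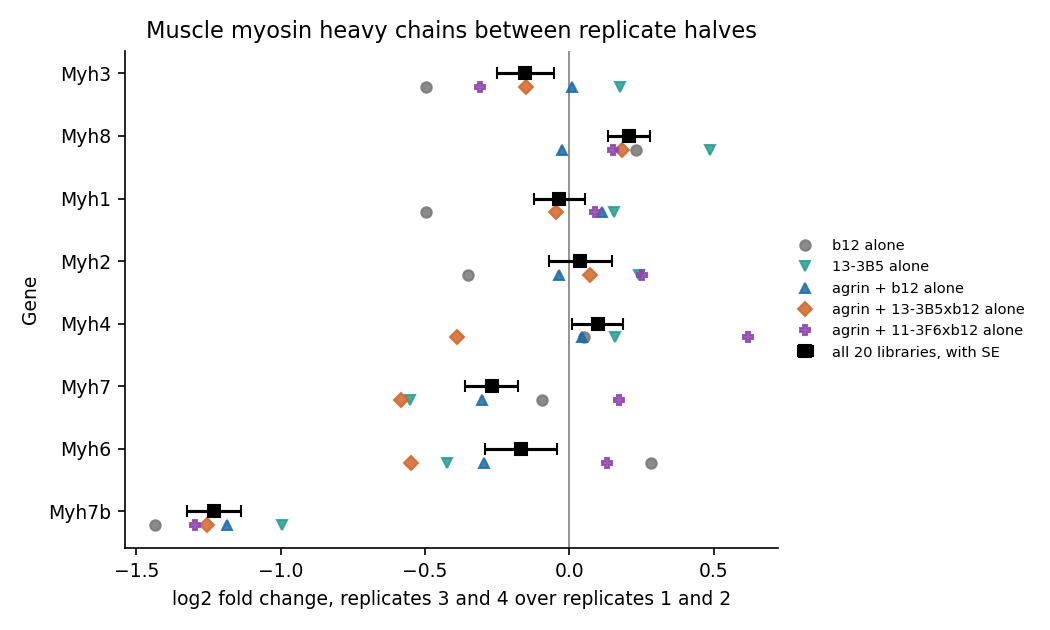
Log2 fold change of replicates 3 and 4 over replicates 1 and 2 (x axis) for each muscle myosin heavy chain (y axis), with all 20 libraries as black squares with their SE and each treatment alone as a coloured mark. Myh7b is at −1.23 with all 5 treatments between −1.44 and −0.997, and the treatments of Myh4 run from −0.39 to 0.62.

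Other contractile and myosin genes were also called between replicates 3-4 and 1-2, where 7.13% of all genes fell and 5.93% rose. Of 14 tested light chains and thick filament proteins, 7 fell and 1 rose, with a median log2 fold change of −0.27 against 0.01 over all genes. Mylk2, the skeletal myosin light chain kinase, was at −1.62 (SE 0.10), Mybpc2, fast myosin-binding protein C, at −0.83 (SE 0.07), the fast light chain Myl1 at −0.65 (SE 0.06) and the M-band protein Myom3 at −0.60 (SE 0.04). Of 9 genes of myosin folding and turnover 5 fell and 1 rose. They included the myosin chaperone Unc45b (−0.47) and the ubiquitin ligase Trim63, which targets myosin heavy chain (−0.76). Of 25 tested fibre type regulators 4 fell and 3 rose, with a median log2 fold change of −0.06. The 3 that rose, named after their values were seen, were Vgll2 (1.23, SE 0.29), Eya1 (0.28) and Vgll3 (0.19). Ppargc1a, a coactivator of the oxidative slow programme, was at −1.93 (SE 0.37), Dio2, which activates thyroid hormone, at −0.82 (SE 0.06), Mef2c, a transcription factor of muscle genes, at −0.40 (SE 0.05) and the homeobox factor Six4 at −0.20 (SE 0.04). Of 21 differentiation genes 10 fell and 1 rose, with a median of −0.26. Slow troponin T, Tnnt1, was at −0.68 and the muscle creatine kinase Ckm at −0.72, while Myog and Acta1 did not pass. The gene that rose among the differentiation genes, named after its value was seen, was Mymx (0.38, SE 0.08). Likewise named afterwards, Mylk4 rose among the light chains and thick filament proteins (0.85, SE 0.18). Hsp90ab1 rose among the genes of folding and turnover (0.18, SE 0.04). All these calls are by edgeR at an adjusted p under 0.05.

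Some cell type markers differed between the same libraries, where 7.13% of all genes fell and 5.93% rose. The summed differentiation genes ran from 17490 to 19018 CPM in replicates 1-2 and from 13719 to 16561 CPM in replicates 3-4. Of 7 tested reserve and satellite cell markers 4 rose and 1 fell (summed 1981 to 2226 CPM, then 2307 to 2561 CPM). On the log2 scale the 4 were Sdc4 (0.36), Cdh15 (0.30), Cd34 (0.27) and Itga7 (0.15). Spry1, named after its values were seen, fell (−0.32). Pax7 did not pass, at −0.38 (adjusted p = 0.333, edgeR), and at no more than 4.04 CPM it made up little of the sum. Of 6 fibroblast-like markers 4 fell (4890 to 5437 CPM, then 4232 to 5098 CPM). Of 10 dividing-cell markers 2 passed, both lower (summed 150 to 252 CPM, then 118 to 255 CPM), a count too small to set against the share over all genes. The log2 fold changes of these 10 ran from −0.73 to −0.22, with a median of −0.42 against 0.01 over all genes. The mitochondrial share of counts was 30.2% to 39.1% in replicates 1-2 and 27.9% to 32.5% in replicates 3-4. The part of any of these in the Myh7b difference was not tested.

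Adult fast Myh4, the IIb gene, had replicate differences of opposite sign in the 2 inhibitor groups, of which the one with 11-3F6xb12 passed the test. With 11-3F6xb12 it stood at 120 and 121 CPM in replicates 1 and 2 and at 173 and 198 CPM in replicates 3 and 4. With 13-3B5xb12 it stood at 175 and 181 CPM and then at 136 and 136 CPM. In the groups without inhibitor it was at 140, 176, 169 and 160 CPM with b12, at 133, 147, 152 and 160 CPM with 13-3B5 and at 141, 140, 148 and 142 CPM with agrin and b12. The extremes of the study were thus both in the 11-3F6xb12 group, and the 2 sets of libraries did not overlap in either inhibitor group. They did not overlap with 13-3B5 or with agrin and b12 either, so that this held in 4 of 5 treatments. With 2 libraries against 2 such a separation was common, in 38.8% of all genes with b12, 44.8% with 13-3B5, 42.0% with agrin and b12, 41.5% with 13-3B5xb12 and 44.9% with 11-3F6xb12.

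**Figure D4:**
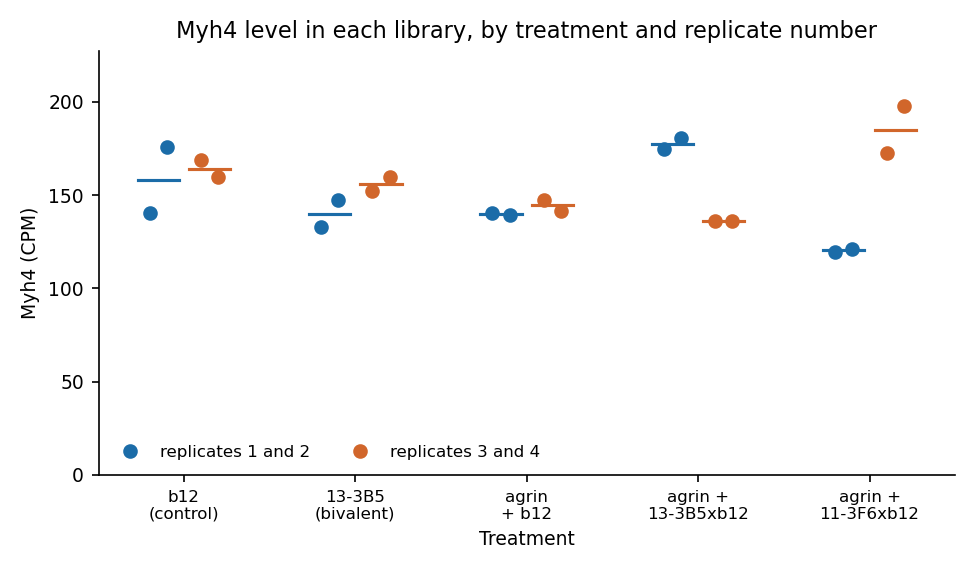
Myh4 level (y axis, CPM) in each library by treatment (x axis), with replicates 1 and 2 in blue, replicates 3 and 4 in orange and a line at each pair's mean. The orange points lie above the blue with 11-3F6xb12 (173 and 198 against 120 and 121 CPM) and below them with 13-3B5xb12.

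The log2 fold change of replicates 3-4 over 1-2 was 0.62 (SE 0.08, adjusted p = 3.04e-11, edgeR) for Myh4 within 11-3F6xb12, and −0.39 (SE 0.10, adjusted p = 0.105) within 13-3B5xb12, which did not pass. Their difference, fitted as an interaction in edgeR after the pattern had been seen, was 1.00 (SE 0.14, adjusted p = 0.000421), and 0.0137% of genes passed, namely Myh4 and the mitochondrial import gene Tomm7 (−0.99). Across the 5 treatments the replicate effect of Myh4 differed with an adjusted p of 0.0221, and Myh4 was the only gene of 14605 to pass (0.00685%). Without any one of the 8 libraries the difference ran from 0.902 to 1.10 and passed each time (adjusted p from 9.70e-05 to 0.0221, edgeR). The count of genes called did depend on 1 library: without 13-3B5xb12 replicate 2 it was 318 (2.18%), and without any other it was 1 or 2. Myh7 had the same signs, at 0.17 within 11-3F6xb12 and −0.58 within 13-3B5xb12. In the interaction fit its difference was 0.75 (SE 0.18, adjusted p = 0.408, edgeR) and that of Myh6 was 0.67 (SE 0.37, adjusted p = 0.715). Neither passed, and the differences of the remaining members ran from −0.16 (Myh3) to 0.18 (Myh2). The 2 inhibitors compared over all replicates gave a log2 fold change of −0.04 for Myh4. Within replicates 3 and 4 alone, 11-3F6xb12 was higher than 13-3B5xb12 by 0.44 (SE 0.08, adjusted p = 0.0108, edgeR, where 0.0470% of genes passed), and within replicates 1 and 2 alone it was at −0.57 (SE 0.11, adjusted p = 0.0963, where 0.0407% passed). With 2 libraries in each cell of this comparison, a difference between single cultures and one of treatment cannot be told apart.

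Some members varied together over the 20 libraries. Of 28 pairs, tested by permutation of log2 CPM with Benjamini-Hochberg adjustment, 3 passed by both Pearson's r and Spearman's rho. The permutation exchanged all 20 libraries freely, across treatments and replicate numbers. Libraries of a replicate number may share a source, so these p-values can overstate the evidence. Embryonic Myh3 and fast Myh1 had r = 0.739 (permutation p = 9e-05, adjusted p = 0.00252) and rho = 0.687 (permutation p = 0.0011, adjusted p = 0.0103). Without the 2 libraries farthest from the median of Myh1 r was 0.604, and it was 0.845 within replicates 1-2 and 0.685 within replicates 3-4. Both libraries set apart by gene length were high in both genes. Myh1 and Myh3 were at 528 and 2131 CPM in b12 replicate 2, and at 441 and 1930 CPM in 13-3B5xb12 replicate 1. The part of the length trend in this correlation was not tested. Myh1 and Myh2 had r = 0.740 (permutation p = 0.00033, adjusted p = 0.00462) and rho = 0.749 (permutation p = 0.00032, adjusted p = 0.00896), with r = 0.629 without the 2 farthest and 0.830 and 0.727 within the sets. Myh6 and Myh7 had r = 0.687 (permutation p = 0.00074, adjusted p = 0.00691) and rho = 0.707 (permutation p = 0.00075, adjusted p = 0.0103). Without the 2 libraries farthest from the median of Myh6 r was 0.535. It was 0.280 within replicates 1-2 and 0.707 within replicates 3-4, so the relation was weaker in replicates 1-2. Myh1 and Myh2, and Myh6 and Myh7, are the pairs with the most shared sequence. Myh7b falls into 2 clusters of libraries, and no pooled r between it and another member is given.

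**Figure D5:**
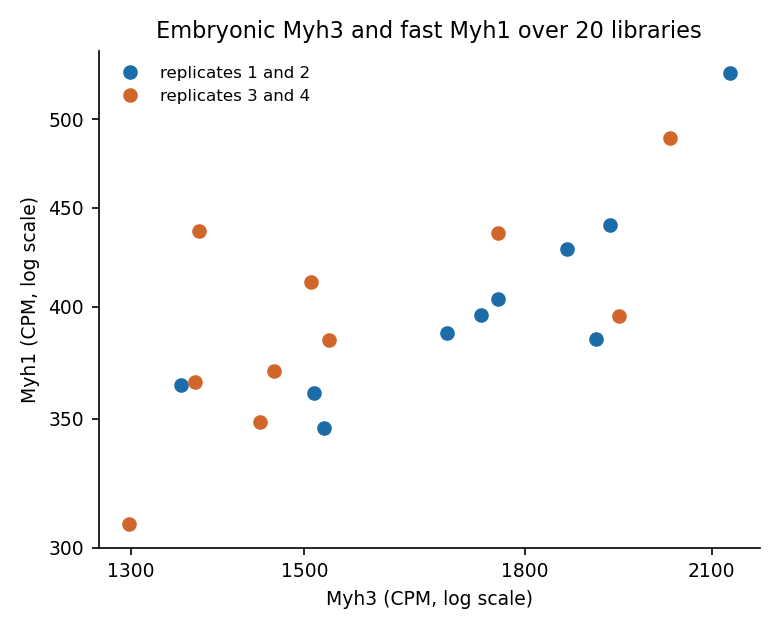
Myh3 level (x axis, CPM, log scale) against Myh1 level (y axis, CPM, log scale) in each of the 20 libraries, with replicates 1 and 2 in blue and replicates 3 and 4 in orange. The highest point, b12 replicate 2 at 2131 and 528 CPM, is also 1 of the 2 libraries set apart by gene length.

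The genes whose log2 CPM followed each member most closely over the 20 libraries, among 11141 ranked, are given as a description. Myh3 was followed by Tpx2 (r = 0.861), Top2a (0.850) and Mki67 (0.850), which serve mitosis, DNA topology and proliferation. Within replicates 1-2 the 3 values were 0.778, 0.732 and 0.827, and within replicates 3-4 they were 0.894, 0.904 and 0.843. Myh7b was followed by the sarcomere-associated kelch protein gene Klhl41 (0.958), by Pgm5 (0.956) and by the actin regulator Cap2 (0.953). Within replicates 1-2 those values were 0.307, 0.0318 and −0.51, and within replicates 3-4 they were 0.747, 0.516 and 0.671. All 3 were lower within each set than over all libraries, which span the 2 clusters of Myh7b. Myh1 was followed by Baiap2l1 (0.868), Med16 and Epg5, Myh2 by Armcx4 (0.737), Msl2 and Epg5, and Myh4 by Foxo3 (0.768), Piezo1 and Phrf1. Myh7 was followed by the hexokinase Hk2 (0.83), Tfrc and Vps26a, Myh6 by Poc1b (0.789), 6430511E19Rik and U2af1, and Myh8 by Exoc4 (0.815), Syncrip and Cdh2. Some of these values were far lower within replicates 1-2. There Myh7 was at 0.204 with Tfrc and 0.177 with Vps26a, and Myh6 at 0.274 with Poc1b. Within replicates 3-4 the same values were 0.849, 0.833 and 0.877. The libraries of a replicate number may share a source, and these values carry no test.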

How the data were processed

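The values are gene counts: the authors deposited 1 whole-number count per gene and library, not normalized. Per the submitters' processing notes, Trim Galore 0.6.6, cutadapt 2.10, STAR 2.7.6a, HTSeq 0.12.4, DESeq2 1.32.0 and build GRCm38 were used; the annotation release, counting mode and use of strand are not given in the sources used here. Libraries came from a stranded total RNA kit with ribosomal RNA removal, per the labels' protocols. Positions and lengths are from GENCODE M21, which held 26667 of the 26722 IDs and lacked 55.

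Totals ranged from 18424881 to 23343903 counts. Counting error was smallest for Myh3 and largest for Myh7b, Myh6 and Myh2. No pair of replicates agreed within sampling noise: over 30 pairs the lowest chi-square per gene was 5.17, among genes with at least 20 counts in the pair.

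Counts were fitted in R 4.3.3 with edgeR 4.0.16: filterByExpr (minimum count 10, minimum total 15), which kept 14605 genes, trimmed mean of M-values (TMM) scaling, a robust quasi-likelihood F-test, two-sided, with Benjamini-Hochberg adjustment over all genes and a threshold of 0.05. Treatments were compared with treatment as the only factor over all 20 libraries, and replicates 3-4 with 1-2 with treatment as a covariate. CPM are TMM-scaled and log2 CPM used a prior count of 2. Shares are CPM per kilobase of merged exon over the sum of the 8 members. Correlations used 100000 permutations, not kept within a treatment or replicate number. The scripts' fits were tested on simulated data.

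Members and gene lists were chosen with earlier results of these data known. The rule for named genes was every member, up to 4 genes with the smallest p among those called in each list, and the 3 genes most correlated with each member. The correlation of deviations between libraries of the same replicate number was taken over 11149 genes. Of 40 same-number pairs, 33 were over 0.1 (0.00824 to 0.384), and every pair was in 4 of the 8 comparisons. Libraries of different number were not compared, and the split by replicate number described above can give such correlations by itself. The check therefore cannot show whether the numbers pair libraries. Pairing comes from the numbers in the sample titles. A fit with the replicate number as a block called 0 members in all 8 comparisons. Alternatives tried were DESeq2 1.42.0 (Wald test and size factors), no filter, a length correction, the replicate block, single treatments, single replicate pairs, other lengths for shares and leaving out libraries. The interaction of treatment and replicate number was added after seeing the data. P-values measure the spread between these cultures of 1 cell line.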

Additional observations from a re-analysis of the deposited data

Results flagged for a closer look

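Myh1, the fast IIx gene, was at 438 CPM in replicate 4 of agrin with 11-3F6xb12, while the other 3 libraries of that group lay between 384 and 388 CPM, so 1 library stood apart. Myh1 was also at 528 CPM in b12 replicate 2, the highest of the 10 libraries of replicates 1-2, where the others ran from 346 to 441 CPM. That library is 1 of the 2 set apart by gene length. Over 56 groups examined (40 treatment groups and 16 sets of replicates), 2 held such a library, and chance alone is expected to give 1 in 20. For Myh4 the difference between replicates 3-4 and 1-2 was not the same in the 5 treatments (adjusted p = 0.0221, edgeR interaction) and differed by 1.00 on the log2 scale between the 11-3F6xb12 and the 13-3B5xb12 group.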

How the results depend on the processing

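No member was called between treatments in 143 of 144 alternative fits, including all 64 that left out 1 library. The exception used replicates 3 and 4 only for 11-3F6xb12 against 13-3B5xb12 and called 1 member, Myh4. With the replicate block 0 members were called in all 8 comparisons, where edgeR called 3 genes for 11-3F6xb12 against b12, 2 against agrin with b12 and 5 against 13-3B5xb12. The SE of Myh7b was 0.50 without the block and 0.15 with it for agrin with b12 against b12. The 1 member called between replicates 3-4 and 1-2 became 3 when counts were summed (14.6% of genes called), with DESeq2 (15.0%) and with no filter (7.43%). It became 4 in 13-3B5 alone (6.61%), 3 in 11-3F6xb12 alone (6.80%), and 2 in 13-3B5xb12 alone (0.562%), with a length correction (14.8%) and without the 2 libraries set apart (17.6%). It was 1 to 2 without 1 library (11.0% to 14.0%). Myh7b kept its direction and call in each of these.

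Fold changes of members that did not pass were reversed in some single treatments: Myh1 (0.15 in 13-3B5, 0.11 in agrin with b12, 0.088 in 11-3F6xb12 and 0.054 without the 2 libraries set apart; −0.078 to 0.027 without 1 library), Myh2 (−0.35 in b12 and −0.035 in agrin with b12; −0.018 to 0.13 without 1 library), Myh3 (0.18 in 13-3B5 and 0.0089 in agrin with b12), Myh4 (−0.39 in 13-3B5xb12), Myh6 (0.28 in b12 and 0.13 in 11-3F6xb12), Myh7 (0.17 in 11-3F6xb12) and Myh8 (−0.026 in agrin with b12). The cause was not tested. Length choice moved 2 classes. Neonatal shares without division by length were 1.11%, 0.976% and 1.24% (all libraries, replicates 1-2, replicates 3-4), and 1.09%, 0.960% and 1.22% with the longest transcript. Slow and cardiac shares were 5.32%, 5.68% and 4.97%, and 5.18%, 5.53% and 4.83%. Members with under 400 counts carry the largest counting error.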

Other observations

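Myh13, the extraocular muscle isoform that completes the skeletal myosin heavy chain cluster, was at 0.639 to 4.81 CPM (14 to 114 counts). It rose by 0.97 on the log2 scale (SE 0.30, adjusted p = 0.0242, edgeR) between replicates 1-2 and 3-4, with overlapping sets: the lowest library of replicates 3-4, at 0.716 CPM, lay under most of replicates 1-2. Its highest level was in agrin with b12 replicate 3, the library with the most liver transcripts. The call was lost without that library (0.74, adjusted p = 0.0914, edgeR) and without b12 replicate 4 (0.82, 0.0802), 13-3B5xb12 replicate 4 (0.91, 0.0548), 13-3B5 replicate 1 (0.89, 0.0523) or agrin with b12 replicate 1 (0.93, 0.0504). It was not a member of the gene group described above, and it was the 1 tested gene of its list of other muscle myosin heavy chains. The 3 tested nonmuscle myosin heavy chains did not pass between replicates 3-4 and 1-2, at 0.04 (Myh9), 0.06 (Myh10) and −0.81 (Myh14, SE 0.40, adjusted p = 0.211, edgeR). Smooth muscle Myh11 was removed by the filter on low counts and was not tested. Myl2, the slow and cardiac regulatory light chain, named after its values were seen, was at −1.18 (SE 0.12, adjusted p = 5.07e-06, edgeR) between the same libraries.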
